A study of Homo sapiens with 2 samples.

Results

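The ZNF676 peaks described here lay at divergent promoters, where the start of a protein-coding gene faces or overlaps the start of another gene on the opposite strand. A peak of the ZNF676 list was taken when its midpoint lay within 500 bp of the start of a protein-coding transcript and when another gene of any type started on the opposite strand within 1000 bp of that midpoint. The rule used GENCODE release 44 lifted to GRCh37, the build of the peak list, and did not use the score of a peak. It found 490 of 6142 peaks (7.98%, exact binomial 95% interval 7.31 to 8.68%), at 486 distinct gene pairs on 23 chromosomes. A further 964 peaks met the first condition only and are called one-directional promoter peaks, so that divergent promoters held 33.7% (31.3 to 36.2%) of 1454 peaks at protein-coding starts. The remaining 4688 peaks are called other peaks.

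The study mapped ZNF676 and ZNF728 by ChIP-exo, in which an exonuclease trims the precipitated chromatin up to the bound protein. HEK293T cells, a human embryonic kidney line, were transduced with a lentiviral vector for HA-tagged ZNF676 or HA-tagged ZNF728, selected with 1 µg/ml of puromycin for 7 days, induced with 1 µg/ml of doxycycline and fixed with 1% formaldehyde for 10 min, and precipitation was through the tag. There was 1 library per protein, both overexpressed the tagged protein, and the input used for peak calling came from an earlier study. No value therefore has a replicate check, intervals cover the sampling of peaks, regions or genes only, and no p-values are given. The lists hold neither reads nor expression values, so read depth is not known here and the identity of the cells could not be checked from markers. The score of a peak is the authors' own value, used below only to rank peaks of the same list; all scores in the ZNF676 list were above 80.

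KRAB zinc finger proteins bind DNA through arrays of zinc fingers, most often within transposable elements, and recruit KAP1, a scaffold for repressive chromatin. Many promoters in CpG islands start transcription in both directions, giving an mRNA on one side and a second mRNA or a long noncoding RNA on the other. Paired genes of this kind are known among DNA repair, mitochondrial and histone genes, and promoters of this class often carry GC boxes, CCAAT boxes and ETS sites rather than a TATA box.

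To show what lies between paired starts, the sequence was taken at the 6 highest-scoring peaks whose pair is head-to-head and whose intervening DNA holds a stretch of 40 to 300 bp outside annotated exons. All are plus-strand GRCh37 sequence, 5′ to 3′, and capitals mark matches on either strand to the motifs listed further on. The stretch between C4orf47 and UFSP2, a protease that removes UFM1 from proteins, is chr4:186347134-186347402, with 1 CRE and 1 GC box. That between PPP2R5A, a regulatory subunit of protein phosphatase 2A, and LINC02608 is chr1:212458473-212458751, with 2 CCAAT boxes, 3 GC boxes and 1 E2F motif. That between WDR27 and C6orf120 is chr6:170102164-170102221, with 1 ETS motif. That between NFE2L1, a transcription factor that controls proteasome genes, and NFE2L1-DT is chr17:46125470-46125690, with 5 CCAAT boxes and 2 GC boxes. That between NECTIN3, a cell adhesion protein, and NECTIN3-AS1 is chr3:110790401-110790662, with 5 GC boxes. That between NAMPT, the rate-limiting enzyme of NAD salvage, and the noncoding gene ENSG00000273320 is chr7:105925133-105925273, with 2 GC boxes.
C4orf47/UFSP2: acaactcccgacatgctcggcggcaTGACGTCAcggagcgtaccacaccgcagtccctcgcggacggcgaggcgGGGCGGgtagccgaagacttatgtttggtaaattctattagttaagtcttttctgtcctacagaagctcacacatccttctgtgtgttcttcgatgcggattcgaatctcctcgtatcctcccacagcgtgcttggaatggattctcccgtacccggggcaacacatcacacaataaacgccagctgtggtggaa
PPP2R5A/LINC02608: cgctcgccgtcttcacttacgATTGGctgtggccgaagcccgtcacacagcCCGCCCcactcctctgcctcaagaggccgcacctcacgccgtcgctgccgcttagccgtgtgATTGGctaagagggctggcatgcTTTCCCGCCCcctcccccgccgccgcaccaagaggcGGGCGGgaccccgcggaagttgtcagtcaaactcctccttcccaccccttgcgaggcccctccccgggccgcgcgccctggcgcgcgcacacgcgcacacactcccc
WDR27/C6orf120: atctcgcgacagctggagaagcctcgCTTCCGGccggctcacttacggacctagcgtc
NFE2L1/NFE2L1-DT: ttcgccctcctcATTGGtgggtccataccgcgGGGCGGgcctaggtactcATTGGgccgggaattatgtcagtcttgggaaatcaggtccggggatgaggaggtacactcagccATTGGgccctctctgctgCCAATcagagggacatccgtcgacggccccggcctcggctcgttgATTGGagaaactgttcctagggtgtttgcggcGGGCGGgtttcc
NECTIN3/NECTIN3-AS1: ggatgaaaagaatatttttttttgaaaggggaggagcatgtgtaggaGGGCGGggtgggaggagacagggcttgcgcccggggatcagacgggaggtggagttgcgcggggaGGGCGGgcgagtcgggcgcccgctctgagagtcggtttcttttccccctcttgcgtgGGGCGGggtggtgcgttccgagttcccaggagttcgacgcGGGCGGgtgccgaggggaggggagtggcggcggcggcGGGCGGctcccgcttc
NAMPT/ENSG00000273320: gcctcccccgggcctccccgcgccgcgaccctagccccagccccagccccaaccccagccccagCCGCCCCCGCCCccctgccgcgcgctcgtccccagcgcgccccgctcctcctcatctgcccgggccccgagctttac
The GC content of these stretches ranged from 54.3% at C4orf47/UFSP2 to 81.6% at NAMPT. In 5 of the 6 the whole stretch lay inside the peak. At NECTIN3 none of its 262 bases did, because the peak began downstream of it.

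The label was checked against the annotation first. The nearest pair of starts was head-to-head, with the genes running away from each other, at 360 of 490 peaks (73.5%, 69.3 to 77.3%). At the other 130 (26.5%) the plus-strand start lay at or to the left of the minus-strand start, an order called overlapping here. The extent of the transcripts was not checked. In 20 of the 130 the starts were at most 100 bp apart, and in 45 of the 130 another head-to-head pair lay within the same distances. This left 85 peaks (17.3%, 14.1 to 21.0%) at which only overlapping starts were annotated, so that the name divergent covers both arrangements. Among all divergent promoter regions of the genome, defined further on and counted without regard to peaks, 72.3% (71.1 to 73.5%) were head-to-head. Each region was classed by its closest pair of starts, whereas peaks were classed by the starts nearest the midpoint.

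The partner was a long noncoding RNA gene at 312 peaks (63.7%, 59.2 to 67.9%) and a protein-coding gene at 157 (32.0%, 27.9 to 36.4%). Small RNA genes were the partner at 9 peaks, pseudogenes at 7 and other gene types at 5. Of the partners, 54 were named as divergent transcripts (-DT) and 88 as antisense RNAs (-AS) of a gene. This mix was near that of all 5545 divergent promoter regions, of which 61.3% (60.04 to 62.6%) had a long noncoding and 31.5% (30.2 to 32.7%) a protein-coding partner. Pairs were again chosen differently for regions and for peaks.

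The 25 highest-scoring peaks are mapped around their starts in the plot of gene pairs by score. Peaks at 3 pairs shared the highest score of the list, 3100, with 15 peaks elsewhere. The first, at MAP4K3, a kinase of amino acid and stress signalling, and its divergent transcript MAP4K3-DT (chr2:39663893-39664879), had its midpoint 40 bp downstream of the MAP4K3 start. The second lay at LRRC74B and the pseudogene P2RX6P (chr22:21399206-21400508), and its midpoint was 378 bp upstream of LRRC74B, between starts 929 bp apart. The third lay at C4orf47/UFSP2 (chr4:186347109-186347908), 100.5 bp into C4orf47. They were followed by PPP2R5A/LINC02608 (score 2401, chr1:212458368-212459905), WDR27/C6orf120 (2258, chr6:170101424-170102743), NFE2L1/NFE2L1-DT (1806, chr17:46124844-46126169) and NECTIN3/NECTIN3-AS1 (1062, chr3:110790672-110791525). Scores then fell from 991 at NAMPT to 419 at PUS1, a pseudouridine synthase.

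Among these 25, a protein-coding partner stood at 9 pairs. They included BRAP, a ubiquitin ligase of Ras signalling, with ACAD10 (score 931), and PGM1, phosphoglucomutase, with ITGB3BP, a centromere protein (score 798). SMCR8, a binding partner of C9orf72, was paired with the topoisomerase gene TOP3A (score 772), and MSH5, a MutS homologue of meiotic recombination, with the chloride channel gene CLIC1 (score 650). MAPK10, the kinase JNK3, faced the phosphatase gene PTPN13 (score 605), and JMY, an actin nucleator, faced DMGDH (score 444). Genes with a noncoding partner included RAD21, a cohesin subunit (score 949), SGF29, a histone reader of the SAGA complex (score 848), and LATS1, a kinase of the Hippo pathway (score 633). All 25 peaks covered their protein-coding start, and 17 of 25 also covered the partner start.

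**Figure D1:**
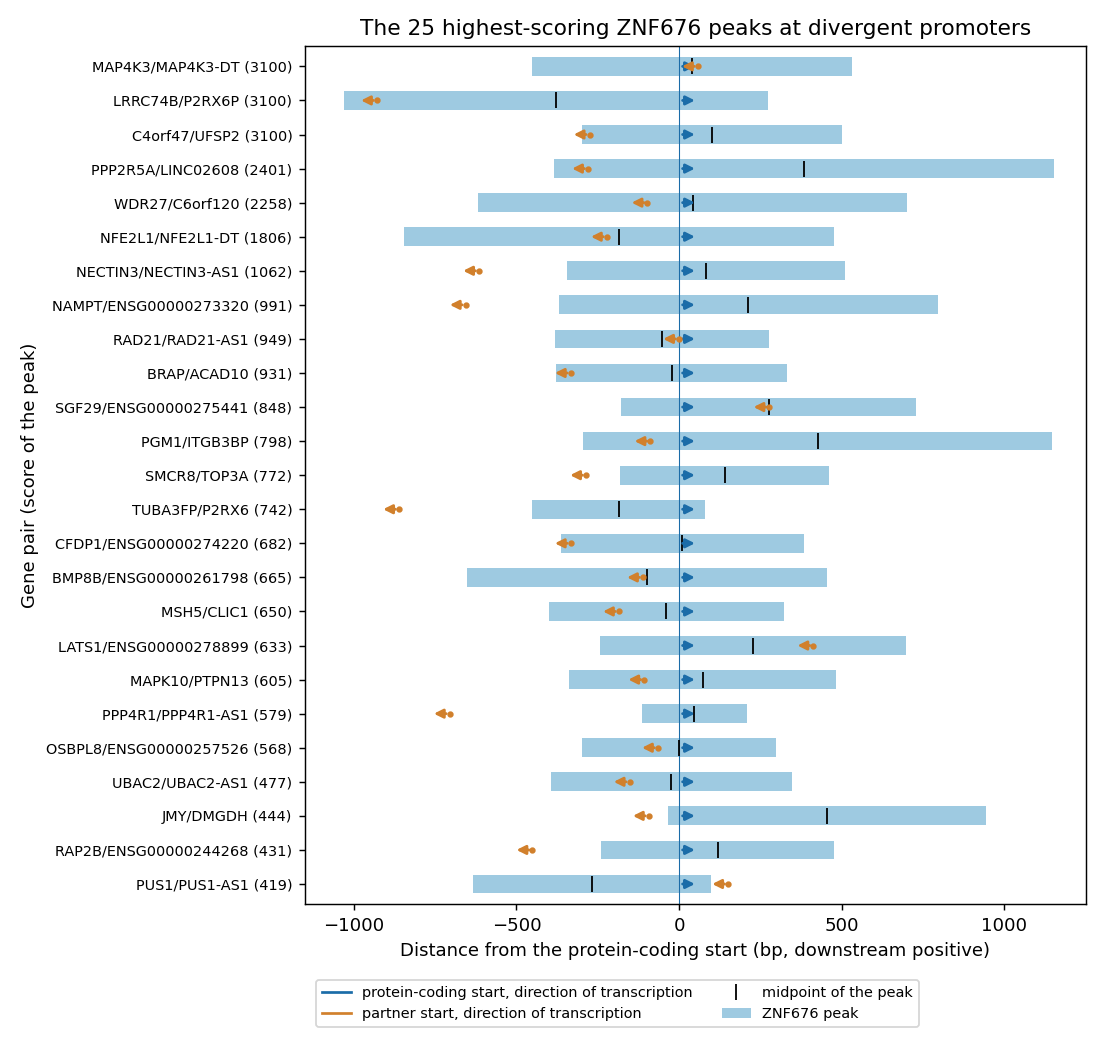
The 25 highest-scoring ZNF676 peaks at divergent promoters, with the distance from the protein-coding start in bp on the x axis (downstream positive) and 1 gene pair per row with its score; light bars are peaks, black ticks their midpoints, blue arrows the protein-coding start and orange arrows the partner start. All 25 bars cross the protein-coding start and 17 also cross the partner start.

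Over all 490 peaks the median score was 113.6 (quartiles 92.8 and 159), against 109.5 (89.9 and 146) for one-directional promoter peaks and 92.6 (84.4 and 111) for other peaks. Widths followed the same order, with a median of 696 bp (523 and 912 bp) at divergent promoters, 665 bp at one-directional promoters and 283 bp elsewhere. The quartiles of the 2 promoter classes overlapped almost wholly for both measures. Among promoter peaks, the share at divergent promoters was 31.5% (27.7 to 35.6%) at scores below 100, 34.2% (30.7 to 37.8%) at 100 to 200 and 38.0% (31.2 to 45.1%) at 200 or more, with overlapping intervals. Peaks with a protein-coding partner had a median score of 116.6 (94.6 and 168) and those with a long noncoding partner 109.1 (92.3 and 156).

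At head-to-head pairs most midpoints lay downstream of the protein-coding start rather than between the starts. Of the 360 head-to-head peaks, 106 (29.4%, 24.8 to 34.4%) had the midpoint between the starts, 237 (65.8%, 60.7 to 70.7%) had it inside the protein-coding gene, downstream of its start, and 17 (4.72%, 2.77 to 7.45%) had it inside the partner. The median midpoint was 48.5 bp downstream of the protein-coding start (quartiles 26.4 bp upstream and 179 bp downstream), while the starts were a median of 206 bp apart. The rule bears on this picture. It admits a midpoint only within 500 bp of a protein-coding start but up to 1000 bp from the partner start. The nearer of paired protein-coding starts also counts as the first. Lengths of DNA differed as well: the rule leaves up to 500 bp downstream of the protein-coding start, against the median of 206 bp between the starts. Shares per length of DNA were not compared. With a long noncoding partner, where the choice between paired protein-coding genes plays no part, 137 of 218 midpoints (62.8%, 56.1 to 69.3%) lay downstream of the protein-coding start, 66 (30.3%) between the starts and 15 (6.88%, 3.90 to 11.1%) downstream of the noncoding start. Where both starts lay within 500 bp of the midpoint and the partner was long noncoding, the protein-coding start was the nearer of the pair at 149 of 210 peaks (71.0%, 64.3 to 77.0%). With only the canonical start of each gene, which left 163 peaks, the share was 68.7%. The part of the number of annotated starts in this share was not tested.

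At starts up to 100 bp apart the median midpoint was 74.5 bp downstream of the protein-coding start, at 101 to 200 bp it was 60 bp, at 201 to 400 bp it was 62.5 bp and above 400 bp it was 8.5 bp. These distances describe the peaks and are bounded by the rule, which also leaves out midpoints far downstream of the protein-coding start in wide pairs, since the partner start must lie within 1000 bp. The peak covered both starts at 88.0% (78.4 to 94.4%) of pairs up to 100 bp apart, at 65.3% (55.2 to 74.5%) of pairs 101 to 200 bp apart, at 43.96% (33.6 to 54.8%) of pairs 201 to 400 bp apart and at 13.98% (7.66 to 22.7%) of wider pairs. Median peak widths in these groups were 695, 710, 716 and 721 bp, so peaks of like width met wider gaps. Over all 490 peaks, 248 (50.6%) covered both starts, 181 (36.9%) the protein-coding start only, 19 (3.88%) the partner start only and 42 (8.57%) neither. One-directional promoter peaks lay in a like place: the protein-coding start was covered at 86.4% (84.1 to 88.5%) of them and at 87.6% (84.3 to 90.3%) of the peaks at divergent promoters, and the midpoint lay upstream of it in 31.2% (28.3 to 34.3%) and 33.9% (29.7 to 38.3%), respectively.

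Some pairs carried more than 1 peak. At MRPL40, a mitochondrial ribosomal protein, and HIRA, a histone chaperone, whose starts lay 812 bp apart, 1 peak covered MRPL40 only (chr22:19419558-19420387, score 207) and a second peak lay 184.5 bp from the HIRA start (chr22:19418577-19419492, score 104). The second peak counts as one-directional, because no start on the opposite strand lay within 1000 bp of its midpoint. In 4 pairs 2 peaks met the rule. At ADARB1, an RNA-editing deaminase, and SSR4P1 the peaks scored 137 and 177, with midpoints 231.5 bp upstream and 165 bp downstream of the nearest ADARB1 starts. At DLL1, a Notch ligand, and FAM120B they scored 146 and 264 and lay at different starts of both genes. GPAT4/GPAT4-AS1 and SLC20A2/SMIM19 were the others. Some of these peaks nearly touched: at ADARB1/SSR4P1 the first ended at chr21:46494475 and the next began at 46494482. Whether such neighbours are parts of 1 signal was not tested.

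The question of how often divergent promoters carry a peak was put to promoter regions, built by merging windows of 500 bp on each side of all protein-coding transcript starts. A region was divergent when another gene started on the opposite strand within 1000 bp of a protein-coding start in it. Otherwise it was one-directional. The pair of a divergent region was its closest pair of such starts. Of 33915 regions, 1443 held a ZNF676 midpoint (4.25%). The share was 8.85% (491 of 5545, 8.12 to 9.63%) for divergent regions and 3.36% (952 of 28370, 3.15 to 3.57%) for one-directional regions. Divergent regions were also richer in GC, with a median of 61.0% against 52.8%, and longer, with a median of 1177 against 1001 bp. When each gene had a single window at its canonical start, the shares were 8.25% (473 of 5735) and 5.98% (826 of 13805), so the gap between the classes narrowed.

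Within 5 groups of equal size by GC content, the share of divergent regions with a peak was 0 of 176 in the lowest group, which allows up to 2.07% by the exact interval, then 3.45% (2.06 to 5.41%), 4.02% (3.00 to 5.27%), 6.13% (5.05 to 7.36%) and 17.0% (15.3 to 18.8%) in the highest. One-directional regions gave 0.121%, 0.335% (0.207 to 0.512%), 1.23% (0.960 to 1.56%), 3.66% (3.15 to 4.21%) and 13.6% (12.7 to 14.6%). The intervals of the 2 classes did not overlap in the upper 4 groups. Of the upper 4 groups, the ratio of the 2 classes was smallest in the highest, which held 316 of the 491 divergent regions with a peak. Whether the GC content itself, the number of starts or the activity of the promoter went with these shares was not tested.

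Among divergent regions the share with a peak was 9.002% (7.70 to 10.4%) with a protein-coding and 9.29% (8.34 to 10.3%) with a long noncoding partner, and 2.27% (0.742 to 5.22%) with a pseudogene partner, where the median GC content was 56.0%. It was 8.95% (8.09 to 9.88%) for head-to-head and 8.60% (7.24 to 10.1%) for overlapping pairs. By spacing, head-to-head pairs gave 8.42% (7.10 to 9.90%) up to 100 bp, 10.8% (9.01 to 12.7%) at 101 to 200 bp, 9.25% (7.26 to 11.6%) at 201 to 400 bp and 6.48% (4.60 to 8.82%) above, so that the intervals at 101 to 200 bp and above 400 bp did not overlap. Overlapping pairs gave 12.3% (9.48 to 15.6%) up to 100 bp, 7.61% (4.32 to 12.2%) at 101 to 200 bp, 6.32% (3.79 to 9.80%) at 201 to 400 bp and 7.04% (5.10 to 9.44%) above, where the first and last intervals did not overlap. By chromosome the share ran from 0 of 17 regions on Y and 2.60% (4 of 154, 0.712 to 6.52%) on X to 21.8% (12 of 55, 11.8 to 35.01%) on chromosome 21. Chromosome 19, which carries most KRAB zinc finger genes, gave 4.47% (16 of 358, 2.58 to 7.16%).

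Base composition did not set the 490 peaks apart from other promoter peaks. The 300 bp around the midpoint had a median GC content of 75.3% (quartiles 70.7 and 79.3%) at divergent promoters, 76.0% (72.0 and 79.7%) at one-directional promoters and 47.3% (41.3 and 53.7%) at other peaks. The observed to expected ratio of CpG dinucleotides was 0.919, 0.927 and 0.258, so both promoter classes had the composition of CpG islands. Peaks with a protein-coding partner had a median GC content of 72.7% and those with a long noncoding partner 76.3%.

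The GC box, GGGCGG, a site of SP1-like factors, was found in the 300 bp around the midpoint of 79.2% (75.3 to 82.7%) of the peaks at divergent promoters, 81.1% (78.5 to 83.5%) of one-directional promoter peaks and 15.0% of other peaks. Both strands were searched for exact letters. The CCAAT box, CCAAT, bound by NF-Y, was in 13.9% (10.9 to 17.3%), 12.6% (10.5 to 14.8%) and 28.9% (27.6 to 30.2%), respectively. The ETS motif, CCGGAAG, was in 12.4% (9.66 to 15.7%), 7.99% (6.35 to 9.88%) and 1.15%. The TATA motif, TATAAA, was in 0.816% (0.223 to 2.08%), 1.97% (1.19 to 3.06%) and 17.3%. The other motifs searched were those of NRF1 (GCGCATGCG), YY1 (AAGATGGCG), CRE (TGACGTCA), the E box (CACGTG), ZNF143 (ACTACAATT), BANP (TCTCGCGAG) and E2F (TTTNNCGC, which can share letters with the GC box). They matched 1.43%, 1.22%, 1.02%, 6.73%, 0, 1.22% and 7.76% of the 490 peaks, and the count of 0 for ZNF143 allows a share of up to 0.750% by the exact interval.

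The same motifs were searched in windows of the same length at promoters with and without a peak. In divergent regions these windows were centred halfway between the paired starts, and in one-directional regions on a protein-coding start. The CCAAT box was in 30.1% (26.1 to 34.4%) of divergent regions with a peak, where windows at the peak midpoint gave 13.9%, and in 31.9% (30.6 to 33.2%) of divergent regions without one. The ETS motif was in 15.3% (12.2 to 18.8%) of divergent regions with a peak and in 16.4% (15.4 to 17.4%) of those without, against 9.35% (7.58 to 11.4%) and 6.15% (5.87 to 6.44%) of one-directional regions. Over all GC groups its share differed between divergent and one-directional windows by more than the intervals. Between divergent regions with and without a peak it differed by less. In the highest GC group alone the ETS motif was in 12.7% (9.20 to 16.8%) of divergent and 8.79% (6.76 to 11.2%) of one-directional regions with a peak, with overlapping intervals, and in 13.9% (12.2 to 15.7%) and 8.36% (7.54 to 9.23%) of those without. Because windows were placed differently in the 2 classes, class and window position cannot be told apart in these differences. The NRF1 motif was in 3.46% (2.03 to 5.49%) and 3.19% (2.72 to 3.71%) of divergent regions with and without a peak. The GC box was in 79.0% (75.1 to 82.5%) of divergent regions with a peak and 61.3% (59.99 to 62.7%) of those without. In the highest GC group these became 83.2% (78.6 to 87.2%) and 81.2% (79.2 to 83.1%). One-directional regions of that group gave 91.1% (88.6 to 93.1%) with a peak and 85.1% (84.0 to 86.2%) without, and those intervals did not overlap. Of all promoter windows, 39.7% held the GC box, 32.5% the CCAAT box, 7.90% the ETS motif, 1.36% the NRF1 motif and 11.8% the TATA motif.

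Genes of known paired promoters were followed through 11 lists. Of all 6751 protein-coding genes with a divergent start, 690 had a ZNF676 midpoint within 500 bp of a start (10.2%), against 867 of 13070 other genes (6.63%, 6.21 to 7.07%). Of 33 genes of textbook divergent pairs, 5 had a peak (15.2%, 5.11 to 31.9%), a share whose interval holds the background. At HSPD1 and HSPE1, the mitochondrial chaperonins, 1 peak covered both starts (chr2:198364194-198364909, score 85.7). At MCM4, a subunit of the replicative helicase, and PRKDC, the DNA-dependent protein kinase, the peak covered the MCM4 start only, of starts 758 bp apart (score 103). MRPL40 and HIRA are described above.

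DNA repair and Fanconi genes had a peak at 4 of 62 (6.45%, 1.79 to 15.7%). The peak at XRCC3, a gene of homologous recombination, with ZFYVE21 scored 176 and covered the ZFYVE21 start only. That at RAD50, a subunit of the MRN complex, with IL5 scored 163, that at POLE, the catalytic subunit of DNA polymerase epsilon, with PXMP2 106, and that at DCLRE1B, a telomere nuclease, with AP4B1 91.2. Those 3 peaks covered both starts. Mitochondrial ribosomal protein genes had a peak at 5 of 38 (13.2%, 4.41 to 28.1%). Beside MRPL40 they were MRPS34 with EME2 (score 167), MRPS2 with PIERCE1 (99.6), MRPL10 with LRRC46 (86.9) and MRPL36 with NDUFS6 (83.0), and each of these 4 peaks covered both starts. Histone genes had a peak at 3 of 40 (7.50%, 1.57 to 20.4%), through BOLA1/H2AC21 (score 189) and H2AC20/H2BC21 (score 81.7) in the cluster on chromosome 1.

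In the other lists the counts were 8 of 179 ZNF genes (4.47%, 1.95 to 8.62%), 1 of 42 cytosolic ribosomal protein genes (2.38%), 1 of 24 proteasome genes (4.17%), 3 of 30 complex I genes (10.0%), 1 of 18 aminoacyl-tRNA synthetase genes (5.56%), 1 of 45 cilium genes (2.22%) and 0 of 17 RNA polymerase genes, which allows up to 19.5% by the exact interval. The cilium list did not hold C4orf47, whose protein the paper places in cilia and sperm flagella and whose peak scored 3100. Its count therefore does not cover all cilium genes. The interval of the ZNF genes was the only one of the 11 that lay wholly below the background. No list lay wholly above it.

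ZNF728, precipitated through the same tag in the same cell line, had few peaks at these places. By the same rule 3 of its 248 peaks (1.21%, 0.250 to 3.49%) lay at divergent promoters and 8 (3.23%, 1.40 to 6.26%) at one-directional promoters, against 7.98% of ZNF676 peaks at divergent promoters. Of the 490 ZNF676 peaks, 1 overlapped a ZNF728 peak (0.204%, 0.00517 to 1.13%). It lay at BMP8B, a bone morphogenetic protein, and the noncoding gene ENSG00000261798 (chr1:40254083-40255188, ZNF676 score 665), where the ZNF728 peak (chr1:40254057-40254412, score 90.05) shared 330 bp with it. The other ZNF728 peaks at divergent promoters lay at C1orf43/UBAP2L (score 99.5) and PRKRA/PJVK (score 153). With so short a ZNF728 list and no replicate, a difference in sensitivity between the libraries and a difference between the proteins cannot be told apart.

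Near-copies touched few peaks. Another place in the genome matched at least 80% of the peak at 95% identity or more for 7 of 490 peaks (1.43%, 0.576 to 2.92%), where reads can be hard to place. These were at NUS1, RGPD6, MZT2B/SMPD4, WASHC2C, HBA1, NUTM2E and AGAP8/TIMM23B, with a median score of 106.4 against 114.0 for the rest. Just inside the limit of 500 bp lay the peaks at ANKH/ANKH-DT (499 bp, score 98.4) and CNNM3 (492.5 bp, score 237), and just outside it METTL14/METTL14-DT (500.5 bp, score 91.7) and EN2/EN2-DT (507.5 bp, score 111). Just inside the limit of 1000 bp lay TUBB2B (999 bp, score 80.3) and KCNG3/MTA3 (995.5 bp, score 129), and just outside it ZNF536 (1007 bp, score 169) and CACNA1G/CACNA1G-AS1 (1019 bp, score 723).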

How the data were processed

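ChIP-exo peaks were analysed from 1 HEK293T library per protein. The authors mapped reads to hg19 with Bowtie2 in sensitive local mode, dropped alignments of mapping quality under 10 and those in blacklisted or high-input regions, and ran MACS on each library against a total input. The deposited score of each peak was used as given, and no score filter is stated in the sources used here. Peak numbers in the names run to 41638 for ZNF676 and 689 for ZNF728, so the lists hold part of what was called. Read counts were not given, so depth is unknown.

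Starts came from GENCODE release 44 on GRCh37. A protein-coding start was that of a protein-coding transcript, and the partner was the nearest opposite-strand start. Shares carry exact Clopper-Pearson 95% intervals. Sequence was read in windows of 300 bp, and 25 promoter regions of undetermined sequence were left out of GC groups and motif counts. Near-copies were found with minimap2 2.31-r1302. The rule and the motif search were tested on simulated data. Calculations used Python 3.11.15, SciPy 1.17.1, pandas 2.3.3 and pysam 0.24.0.

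Named pairs were those of the 25 highest scores, of the textbook, DNA repair, mitochondrial ribosomal and histone lists, those with a ZNF728 peak, and 2 on each side of each limit. Genes at HIRA, at pairs with several peaks and with near-copies were named after their values were seen. The peaks, lists, motifs and tests were chosen with earlier results of these data known. Alternatives changed the distances, the transcripts, the score filter, the window and the counting of regions.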

Additional observations from a re-analysis of the deposited data

How the results depend on the processing

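Of 97 alternative values for 16 results, 80 stayed within the 95% interval of the reported value (counts within 1.5 times) and 17 moved. The share of promoter peaks at divergent promoters was 23.9% with the partner within 500 bp, 37.0% with 2000 bp and 26.9% with head-to-head pairs only. With basic transcripts only, 27.8% of the peaks had a protein-coding partner and 4.56% of one-directional regions had a peak. Restriction to the upper-scoring peaks of the list, from its median score up, raised the median score to 133.6, by construction, and gave 6.26% of divergent and 2.28% of one-directional regions with a peak. Regions of 250 bp on each side gave 5.98% and 2.36%, and a single window at the canonical start gave 5.98% for one-directional regions. In windows of 200 and 500 bp the CCAAT box was in 10.8% and 25.1% of the peaks, the GC box in 70.6% and 89.8% and the ETS motif in 8.57% and 17.6%; longer windows hold more matches. The use of canonical starts for the nearer gene and for the side of the midpoint was chosen after seeing the data. No paired analysis was possible because there was 1 library per protein. Depth is unknown, and a peak missing from the lists is not shown to be absent.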
